A study of Saccharomyces cerevisiae with 12 samples.

Results

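The genes of branched-chain amino acid synthesis in budding yeast were described across 6 growth environments. The set holds 10 genes, *ILV2*, *ILV6*, *ILV5*, *ILV3*, *LEU4*, *LEU9*, *LEU1*, *LEU2*, *BAT1* and *BAT2*. They were taken by name from the 7127 identifiers of the tables, with earlier results of these data known. RNA was sequenced from BY4743, a homozygous diploid laboratory strain, grown in SC (defined synthetic medium with glucose) at 37°C, called SC37, in SC at 30°C to which 40 g/l of NaCl was added, called SC-NaCl, in YPG (rich medium with 3% glycerol in place of glucose) at 30°C, in YPD (rich medium with glucose) at 24°C or 32°C, called YPD24 and YPD32, and in plain SC at 30°C, called SC30, the standard condition. There were 2 libraries per environment, from independently started small cultures in titration plates that were collected late in growth, and all came from this 1 strain. BY4743 lacks *LEU2*, *URA3* and a working *HIS3* on both homologs, so leucine, uracil and histidine had to come from the medium in every environment, and it carries *MET17* and *LYS2* on 1 homolog each. The YPG samples carry a medium label that names YPD, while their titles and the growth protocol give glycerol. YPD at 30°C was not analysed, so in any comparison of YPD with SC the medium and the temperature cannot be told apart. In bulk RNA, fewer cells that use a gene and less of its RNA per cell cannot be told apart either.

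Valine, isoleucine and leucine share most of their synthesis. Acetohydroxyacid synthase, a reductoisomerase and a dehydratase in the mitochondrion make the keto acids of valine and isoleucine, and leucine branches off the valine precursor through isopropylmalate synthase, isomerase and dehydrogenase. Transaminases turn the keto acids into amino acids and also run the other way in amino acid breakdown. Leu3 is a zinc cluster factor that activates many of these genes when it is bound by the pathway intermediate alpha-isopropylmalate, and Gcn4 activates amino acid synthesis genes generally under amino acid starvation.

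The reference promoters show which members carry letters that Leu3 or Gcn4 are known to bind. Within 600 bases before the start codon, the loose Leu3 motif, CCG then any 4 bases then CGG, which reads the same on both strands, stood in 7 of 10 members and in 3.90% of 6002 genes of the R64 annotation. Its strict form, CCGG then any 2 bases then CCGG, a subset of the loose matches, stood in 5 members and in 0.333% of genes. The Gcn4 motif TGACTC, searched on both strands, stood in 7 members and in 15.3% of genes. From 250 bases before to 50 after the start codon, the counts were 3, 3 and 5 members, against 1.45%, 0.133% and 7.98% of genes. A match describes letters of the reference genome and is not a measured binding site. *LEU2*, which BY4743 lacks, is among the members with the loose and the strict Leu3 motif. The 5 strict matches are shown because this is the feature rarest among all promoters that several members share. Each line runs 5′ to 3′ on the strand of its gene, and capitals mark the motif.
ILV2: ccggagcctgCCGGTACCGGcttggcttca
ILV5: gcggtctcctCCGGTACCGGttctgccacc
LEU1: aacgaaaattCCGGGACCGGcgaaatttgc
LEU2: ggtgagagcgCCGGAACCGGcttttcatat
BAT1: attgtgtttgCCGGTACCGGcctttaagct

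These windows are chrXIII:483606-483635 on the plus strand for *ILV2*, chrXII:839611-839640 on the minus strand for *ILV5*, chrVII:478850-478879 on the minus strand for *LEU1*, chrIII:91116-91145 on the plus strand for *LEU2* and chrVIII:517375-517404 on the plus strand for *BAT1* (R64). The motif began 468, 377, 217, 198 and 147 bases before the start codon in these genes. *ILV2*, *ILV5* and *BAT1* had the same 10 letters. *LEU1* held another loose match 187 bases before its start codon, *LEU9* 1 at 277 bases and *BAT2* 1 at 334 bases. The whole promoters of the members are not shown.

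Of the 10 members, 9 had values above 0 and passed the filter on low counts (a mean of at least 10), with their lowest value in any library at 615 counts. *LEU2* (YCL018W, chromosome III, positions 91324 to 92418) makes the dehydrogenase of the leucine branch and was listed at 0 in all 12 libraries, as was *URA3*, another gene deleted in the strain. *HIS3*, of which the strain has no working copy, was not at 0, with mean counts from 258 in SC-NaCl to 2574 in YPD32. The 9 haploid-specific genes used to check the ploidy had summed counts of 762 to 2791 per library, with *MFA1* and *MFA2* listed at 0. The other 7 were above 0 in every library, up to a mean count of 1421 for *RME1* in SC-NaCl. The list alone therefore does not settle the ploidy. The scaled totals of the libraries lay between 13872996 and 14144527 counts, and the implied depth was 12377840 to 15512768 read pairs. The replicates of an environment correlated with r = 0.987 to 0.994 over 6082 genes. Those of SC-NaCl lay furthest apart, with a median absolute log2 difference of 0.217, against 0.077 to 0.117 in the other environments. The limma fit used 1 spread per gene for all environments, so the SE given for salt do not show this. All 9 measured members have 1 coding exon and overlap no other annotated gene, but *LEU4* with *LEU9* and *BAT1* with *BAT2* are paralogs, and the authors' counting may have split reads from sequence that a pair shares.

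The summed level of the pathway was lowest in salt and highest in YPD32. Per length, the members summed to 3339 and 3196 FPKM in SC37, 1039 and 1221 FPKM in SC-NaCl, 4587 and 4526 FPKM in YPG, 4468 and 4553 FPKM in YPD24, 5971 and 6135 FPKM in YPD32, and 3242 and 3004 FPKM in SC30. The mean sum in YPD32 was 5.36 times that in SC-NaCl. It was 5.43 times with summed counts and 4.75 times with FPKM after median-of-ratios scaling, which evens out the median gene between libraries. The share of all counts was 0.174% in SC-NaCl, 0.950% in YPD32 and 0.454% in SC30. Among the 6 environments each of the 9 members differed by limma's moderated F, where 96% of all genes tested did, so that count alone says little about the pathway.

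**Figure D1:**
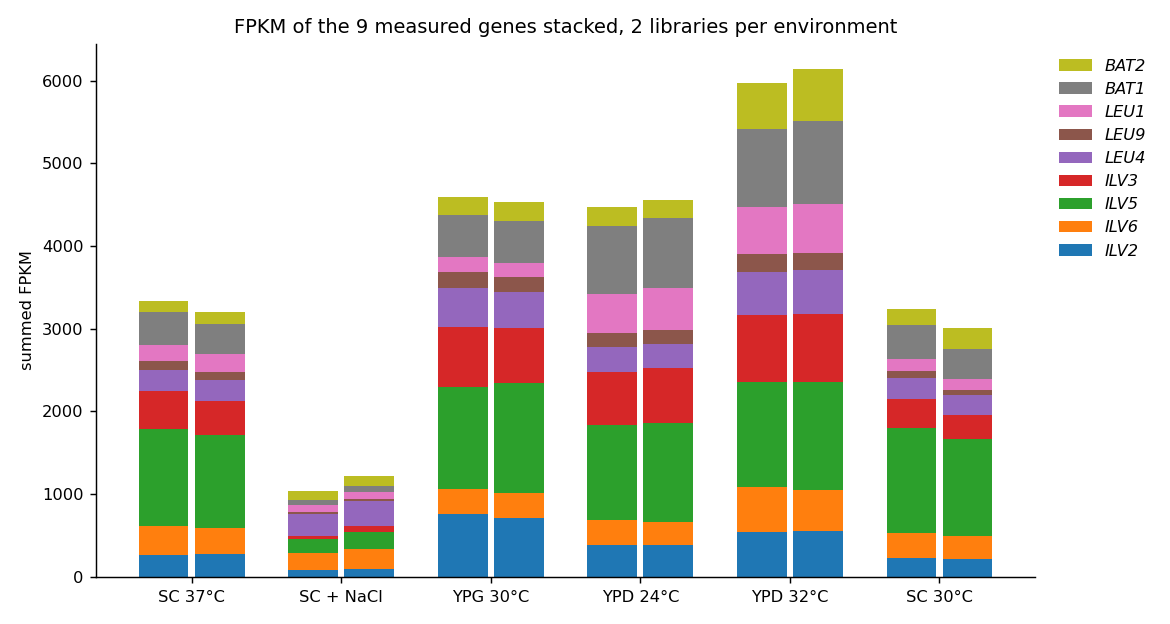
Stacked FPKM of the 9 measured genes in each library, with environments along the horizontal axis and the summed FPKM on the vertical axis. The libraries of SC-NaCl reach 1039 and 1221 FPKM and those of YPD32 5971 and 6135 FPKM, with *ILV5* the tallest segment outside salt.

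The makeup of the sum also differed. *ILV5* took 39.0% of the summed FPKM in SC30 and between 21.3% and 35.0% in the other environments without salt. In SC-NaCl it took 16.4%, and *LEU4* with 25.2% and *ILV6* with 20.4% took the largest shares. *LEU9* was the lowest member per length in every environment except YPG, where *LEU1* was lower, with 175 ± 2.3 FPKM against 186 ± 8.5 FPKM for *LEU9* (SD, n = 2).

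The first enzyme, acetohydroxyacid synthase, is made of a catalytic subunit, *ILV2* (YMR108W, chromosome XIII, positions 484084 to 486147, plus strand), and a regulatory subunit, *ILV6* (YCL009C, chromosome III, positions 104619 to 105548, minus strand), which makes the enzyme sensitive to valine. *ILV2* had counts of 7953 and 8247 in SC37, 2363 and 2761 in SC-NaCl, 22889 and 21551 in YPG, 11512 and 11580 in YPD24, 16497 and 16688 in YPD32, and 6851 and 6592 in SC30. It was the only member with its highest level in YPG, and no pair of environments overlapped. All neighbours in the order of its levels differed by limma, the smallest gap being 0.27 on the log2 scale between SC37 and SC30. *ILV6* had counts of 4772 and 4322 in SC37, 2917 and 3329 in SC-NaCl, 4090 and 4054 in YPG, 4091 and 3773 in YPD24, 7285 and 6774 in YPD32, and 4089 and 3815 in SC30. It was high in YPD32 and low in salt. In the order of its levels, SC37, YPG, SC30 and YPD24 lay between these ends, and neighbours among these 4 did not differ beyond their spread.

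*ILV5* (YLR355C, chromosome XII, positions 838066 to 839253, minus strand) encodes the reductoisomerase, a mitochondrial enzyme that also helps to keep mitochondrial DNA stable. Its counts were 20274 and 19477 in SC37, 2784 and 3664 in SC-NaCl, 21517 and 23206 in YPG, 20022 and 20841 in YPD24, 22190 and 22671 in YPD32, and 22031 and 20321 in SC30. Salt stood apart from the rest, and the means of the other 5 environments lay within 1.13-fold of each other, with no neighbours that differed. *ILV3* (YJR016C, chromosome X, positions 464451 to 466208, minus strand) encodes the dihydroxyacid dehydratase, an iron-sulfur enzyme. Its counts were 11922 and 10746 in SC37, 1155 and 1627 in SC-NaCl, 18592 and 17063 in YPG, 16604 and 17058 in YPD24, 20544 and 21019 in YPD32, and 9085 and 7311 in SC30. The highest mean was 14.9 times the lowest, the widest range of any member. YPD32, YPG and YPD24 did not differ as neighbours, while the 3 SC environments did.

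The leucine branch starts with alpha-isopropylmalate synthase, made from *LEU4* (YNL104C, chromosome XIV, positions 424895 to 426754, minus strand), the main isoenzyme, and its paralog *LEU9* (YOR108W, chromosome XV, positions 523027 to 524841, plus strand). *LEU4* had counts of 7059 and 6703 in SC37, 7258 and 8185 in SC-NaCl, 12815 and 11683 in YPG, 7949 and 7977 in YPD24, 14440 and 14400 in YPD32, and 7000 and 6735 in SC30. It was the only measured member that was not lowest in salt. *LEU9* had counts of 2677 and 2748 in SC37, 615 and 772 in SC-NaCl, 5087 and 4770 in YPG, 4484 and 4487 in YPD24, 5523 and 5435 in YPD32, and 2014 and 1667 in SC30. The 3 rich media were high for *LEU9* and did not differ as neighbours in the order of levels. Their ends did, with YPD24 0.29 below YPD32 on the log2 scale (limma, adjusted p = 0.0407). *LEU4* in YPD24, next below YPG, lay 0.62 lower on that scale.

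*LEU1* (YGL009C, chromosome VII, positions 476313 to 478652, minus strand) encodes the isopropylmalate isomerase, a cytosolic iron-sulfur enzyme that acts just before the step that BY4743 lacks. Its counts were 6883 and 7088 in SC37, 2694 and 2717 in SC-NaCl, 6030 and 5919 in YPG, 16355 and 17437 in YPD24, 19409 and 20292 in YPD32, and 5261 and 4535 in SC30. Both YPD environments were far above the rest, YPG stayed near the SC environments, and no pair of environments overlapped.

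The transaminases of the last step are *BAT1* (YHR208W, chromosome VIII, positions 517532 to 518713, plus strand), whose enzyme is mitochondrial, and *BAT2* (YJR148W, chromosome X, positions 705744 to 706874, plus strand), whose enzyme is cytosolic. *BAT1* had counts of 6761 and 6320 in SC37, 1040 and 1362 in SC-NaCl, 8943 and 8669 in YPG, 14250 and 14562 in YPD24, 16318 and 17404 in YPD32, and 7092 and 6135 in SC30. Its counts in SC37 lay between those of SC30. *BAT2* had counts of 2312 and 2345 in SC37, 1836 and 2011 in SC-NaCl, 3425 and 3779 in YPG, 3662 and 3505 in YPD24, 9247 and 10321 in YPD32, and 3211 and 4151 in SC30. YPD32 stood alone at the top for *BAT2*, and SC30, YPG and YPD24 overlapped.

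**Figure D2:**
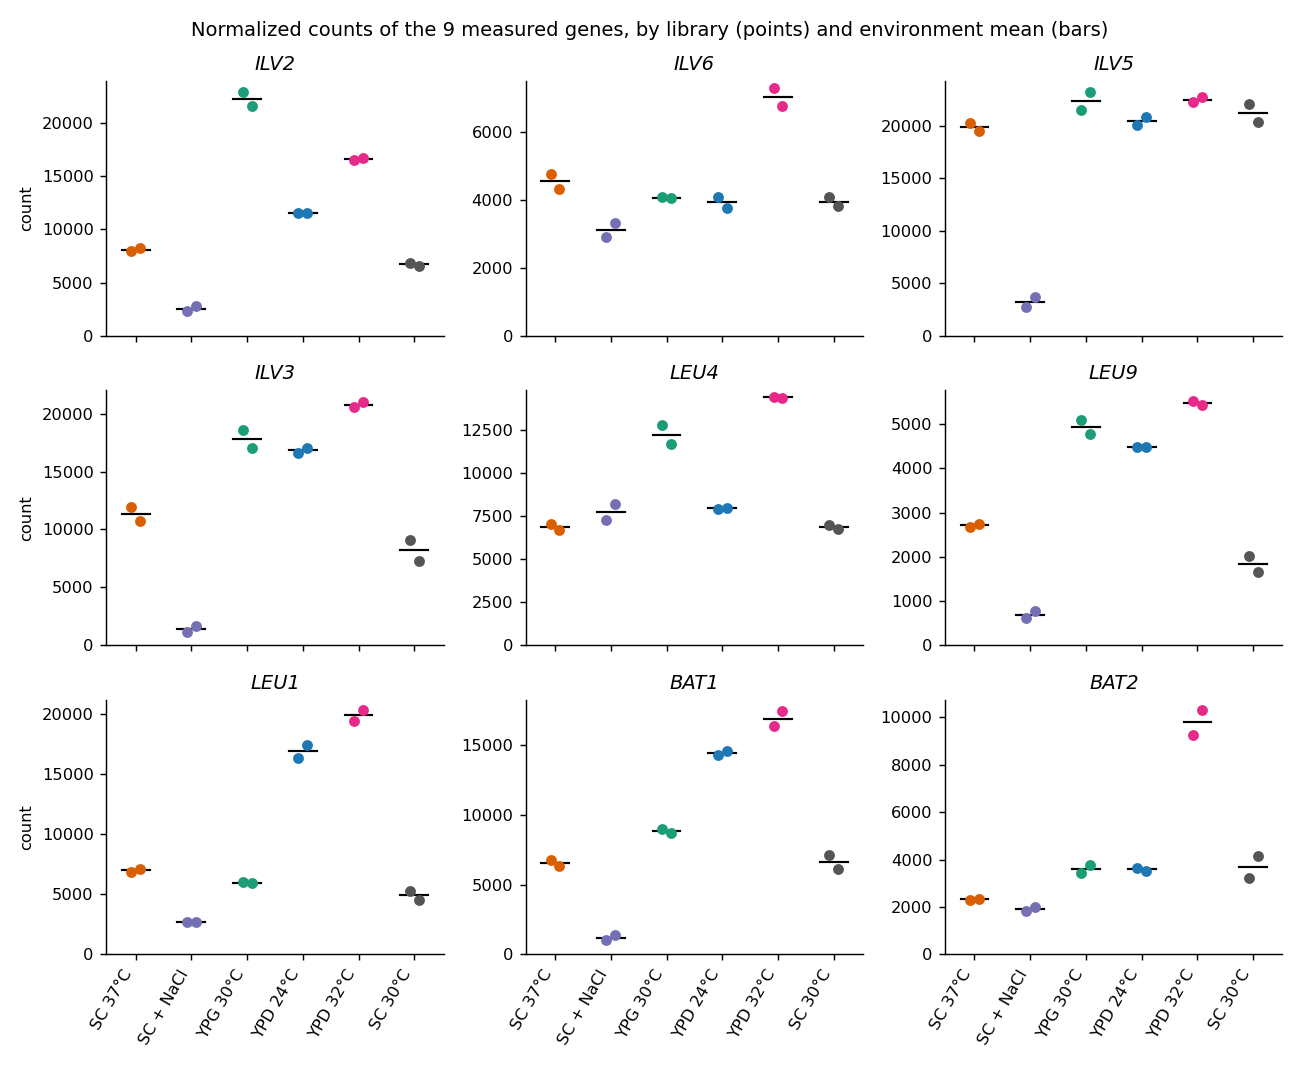
Normalized counts (vertical axes, each from 0) of the 9 measured genes in 6 environments (horizontal axes), with a point per library and a bar at the mean of 2. *ILV5* is level outside salt, *LEU4* is not lowered in salt, *ILV2* peaks in YPG and *BAT2* stands out in YPD32 with 9247 and 10321 counts.

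The comparison of SC37 with SC30 asked what heat did in the same medium. *LEU9* rose by 0.57 ± 0.11 on the log2 scale (limma, SE, adjusted p = 0.00185), *LEU1* by 0.52 ± 0.08 (adjusted p = 0.000483), *ILV3* by 0.47 ± 0.14 (adjusted p = 0.0215) and *ILV2* by 0.27 ± 0.09 (adjusted p = 0.0342), and *BAT2* fell by 0.65 ± 0.11 (adjusted p = 0.000671). In all, 5 of 9 members passed the test, beside 23.4% of all genes (11.9% higher and 11.6% lower), and the median of the members was 0.20 with that of all genes at 0.02. *ILV6*, *ILV5*, *LEU4* and *BAT1* did not pass, with changes between -0.09 and 0.20. *ILV2* was no longer called whenever any of the 4 libraries was left out (0.24 to 0.30), nor was *ILV3* without the library labelled SC37 replicate 1 (0.40) or SC30 replicate 2 (0.32).

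Most of the pathway was lower in SC-NaCl than in SC30, with *ILV5*, *ILV3* and *BAT1* changed most. *ILV5* fell by 2.73 ± 0.11 on the log2 scale (limma, SE, adjusted p = 9.63e-12), *ILV3* by 2.57 ± 0.14 (adjusted p = 1.9e-10) and *BAT1* by 2.47 ± 0.11 (adjusted p = 3.2e-11). *LEU9* and *ILV2* fell by 1.41 ± 0.11 and 1.40 ± 0.09, *BAT2* by 0.93 ± 0.11, *LEU1* by 0.85 ± 0.08 and *ILV6* by 0.34 ± 0.09. In all, 8 of 9 members were lower in salt, beside 47.2% of all genes lower, 33.8% higher and 80.9% called in either direction, and the median of the members was -1.40 with that of all genes at -0.22. *LEU4*, at 0.17 ± 0.08, was not called (adjusted p = 0.0797). The shift of all genes matters for the small changes: with median-of-ratios scaling, which sets the median gene near 0, *ILV6* was at -0.14 and no longer called and *LEU4* at 0.37 and called higher. *LEU4* was also called higher without SC-NaCl replicate 1 (0.25).

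A list of 6 genes that yeast uses when glucose is gone (*ADH2*, *FBP1*, *PCK1*, *ICL1*, *MLS1* and *JEN1*) moved with salt. Their summed counts were 231198 and 239146 in SC-NaCl and 127235 and 127560 in YPG, and 1474 to 2543 in the other 8 libraries. All 6 were called higher in SC-NaCl and in YPG against SC30, beside 33.8% and 28.1% of all genes higher. None of the 6 was at 0 in any library, and their part in the members' levels was not tested.

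In YPG the catalytic subunit *ILV2* was raised most. Against SC30, *ILV2* rose by 1.72 ± 0.09 on the log2 scale (limma, SE, adjusted p = 3.64e-10), *LEU9* by 1.43 ± 0.11 (adjusted p = 3.39e-08), *ILV3* by 1.13 ± 0.14, *LEU4* by 0.83 ± 0.08, *BAT1* by 0.42 ± 0.11 and *LEU1* by 0.29 ± 0.08. In all, 6 of 9 members rose and none fell, beside 28.1% of all genes higher, 38.7% lower and 66.9% called in either direction, with a median of 0.42 for the members and -0.11 for all genes. *ILV6*, *ILV5* and *BAT2* were not called, at 0.04, 0.08 and -0.02. Without SC30 replicate 2, *LEU1* (0.18) and *BAT1* (0.31) were no longer called, which left 4 members. Medium and carbon source both differ here, and the comparison cannot tell them apart.

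In YPD24, *LEU1* was raised most against SC30, by 1.79 ± 0.08 on the log2 scale (limma, SE, adjusted p = 3.56e-10). *LEU9* rose by 1.29 ± 0.11, *BAT1* by 1.13 ± 0.11, *ILV3* by 1.05 ± 0.14, *ILV2* by 0.78 ± 0.09 and *LEU4* by 0.21 ± 0.08 (adjusted p = 0.0418). In all, 6 of 9 members rose and none fell, beside 10.4% of all genes higher, 45.6% lower and 56% called in either direction, and the medians were 0.78 for the members and -0.29 for all genes. *ILV6* (-0.01), *ILV5* (-0.05) and *BAT2* (-0.03) were not called. Under median-of-ratios scaling these 3 turned to 0.28, 0.24 and 0.26, and *ILV6* and *BAT2* were called higher. *LEU4* was no longer called whenever any of the 4 libraries was left out (0.19 to 0.24).

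In YPD32 every measured member but *ILV5* was higher than in SC30. *LEU1* rose by 2.02 ± 0.08 on the log2 scale (limma, SE, adjusted p = 1.51e-10), which is 4.06-fold, *LEU9* by 1.58 ± 0.11 and *BAT2* by 1.42 ± 0.11 (adjusted p = 1.26e-07). *BAT1* and *ILV3* rose by 1.35 each, *ILV2* by 1.30, *LEU4* by 1.07 and *ILV6* by 0.83. In all, 8 of 9 members rose, beside 16.7% of all genes higher, 21.5% lower and 38.2% called in either direction, and the medians were 1.35 for the members and -0.01 for all genes. *ILV5* was at 0.08 with a 95% interval of -0.15 to 0.32. The 8 calls held under every alternative run for this comparison.

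**Figure D3:**
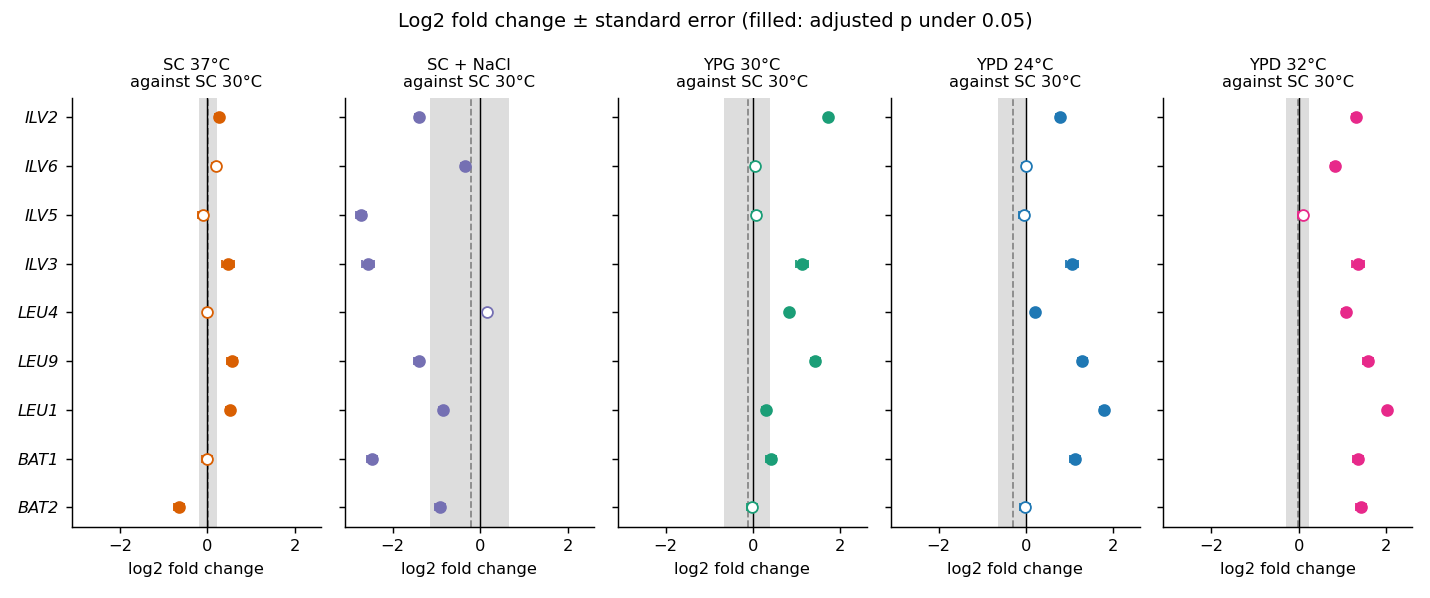
Log2 fold change (horizontal axes) ± SE of the 9 measured genes (rows) in 5 environments against SC30, with filled points for an adjusted p under 0.05, a dashed line at the median of all genes and a grey band over their middle quartiles. The members lie between -2.73 and 0.17 in SC-NaCl and between 0.08 and 2.02 in YPD32.

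The 5 comparisons above share the libraries of SC30, so a deviation of those libraries enters each of them, and the 2 that follow share the libraries of YPD32. Side by side, the change of *LEU1* was 0.52, -0.85, 0.29, 1.79 and 2.02 in SC37, SC-NaCl, YPG, YPD24 and YPD32, against SC30 in each. That of *BAT2* was -0.65, -0.93, -0.02, -0.03 and 1.42 in the same order. That of *ILV5* was -0.09, -2.73, 0.08, -0.05 and 0.08.

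The comparison of YPD24 with YPD32 varied the temperature in rich medium. *BAT2* fell by 1.45 ± 0.11 on the log2 scale (limma, SE, adjusted p = 1.94e-07), *LEU4* by 0.86 ± 0.08 (adjusted p = 2.05e-06), *ILV6* by 0.84 ± 0.09 (adjusted p = 5.17e-06) and *ILV2* by 0.52 ± 0.09 (adjusted p = 0.000221). *LEU9* (-0.29) and *LEU1* (-0.23) were also called lower, which made 6 of 9 members, beside 42.6% of all genes lower, 6.71% higher and 49.3% called in either direction. The medians were -0.30 for the members and -0.26 for all genes. These calls went with that shift: with median-of-ratios scaling *LEU9* and *LEU1* were at -0.02 and 0.03 and were not called, and neither was called when any of the 4 libraries was left out. *BAT2* (-1.18), *LEU4* (-0.59), *ILV6* (-0.57) and *ILV2* (-0.26) were still called lower under that scaling. *ILV5*, *ILV3* and *BAT1* were not called, at -0.13, -0.30 and -0.23.

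YPG against YPD32 compared glycerol with glucose in rich medium, with a temperature that also differed. *LEU1* fell by 1.73 ± 0.08 on the log2 scale (limma, SE, adjusted p = 2.99e-10), *BAT2* by 1.44 ± 0.11 (adjusted p = 3.76e-08), *BAT1* by 0.94 ± 0.11, *ILV6* by 0.79 ± 0.09 and *LEU4* by 0.24 ± 0.08. *ILV2* alone rose, by 0.42 ± 0.09 (adjusted p = 0.000592). In all, 5 members were lower and 1 was higher, beside 36.5% and 26.9% of all genes and 63.4% called in either direction. The medians were -0.24 for the members and -0.10 for all genes. *ILV5*, *ILV3* and *LEU9* were not called, at -0.01, -0.22 and -0.15. *LEU4* lost its call under median-of-ratios scaling (-0.13) and without YPG replicate 2 (-0.17) or either library of YPD32 (-0.23 and -0.24).

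**Figure D4:**
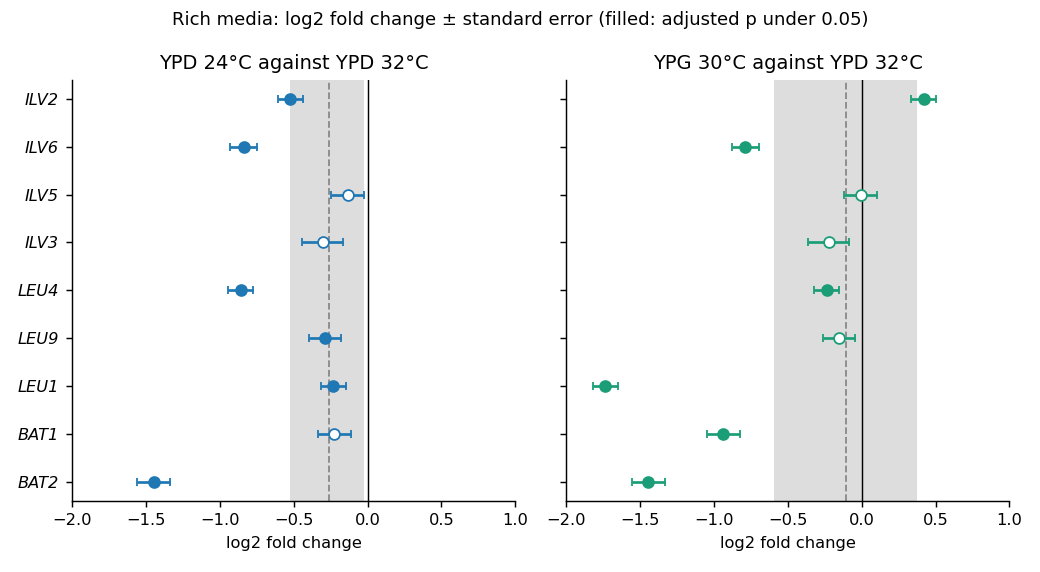
Log2 fold change (horizontal axes) ± SE of the 9 measured genes (rows) between rich media, YPD24 against YPD32 and YPG against YPD32, with filled points for an adjusted p under 0.05, a dashed line at the median of all genes and a grey band over their middle quartiles. *BAT2* is lower in both, by 1.45 and 1.44, and *LEU1* is at -1.73 in YPG against YPD32, next to *BAT2*.

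The balance between partners was compared within each library, which does not depend on how libraries were scaled. *BAT2* over *BAT1* in FPKM was 0.357 and 0.388 in SC37, 1.85 and 1.54 in SC-NaCl, 0.400 and 0.456 in YPG, 0.269 and 0.252 in YPD24, 0.592 and 0.620 in YPD32, and 0.473 and 0.707 in SC30. In salt the cytosolic enzyme's transcript exceeded that of the mitochondrial enzyme, and in every other library it was the lower of the pair. The geometric means spanned 6.49-fold. The ratio differed among the 6 environments (exact permutation test of F over 12 libraries, p = 0.00125, adjusted over 3 ratios 0.00125), while the span itself and pairs of environments were not tested. The libraries of SC30 lay far apart, on either side of those of YPD32.

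*LEU9* over *LEU4* was 0.389 and 0.420 in SC37, 0.0868 and 0.0966 in SC-NaCl, 0.407 and 0.418 in YPG, 0.578 and 0.576 in YPD24, 0.392 and 0.387 in YPD32, and 0.295 and 0.254 in SC30. *LEU4* was the higher of the paralogs in all 12 libraries, and their ratio was lowest in salt and highest in YPD24, a span of 6.30-fold. That ratio differed among the 6 environments (exact permutation test of F, p = 0.000673, adjusted 0.00101). *ILV6* over *ILV2* was 1.33 and 1.16 in SC37, 2.74 and 2.68 in SC-NaCl, 0.397 and 0.417 in YPG, 0.789 and 0.723 in YPD24, 0.980 and 0.901 in YPD32, and 1.32 and 1.28 in SC30. The regulatory subunit's transcript was the higher in all 6 SC libraries and the lower in all 6 libraries of rich media. The geometric means spanned 6.65-fold, and this ratio too differed among the 6 environments (exact permutation test of F, p = 0.000289, adjusted 0.000866). The split between SC and rich media was not tested.

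**Figure D5:**
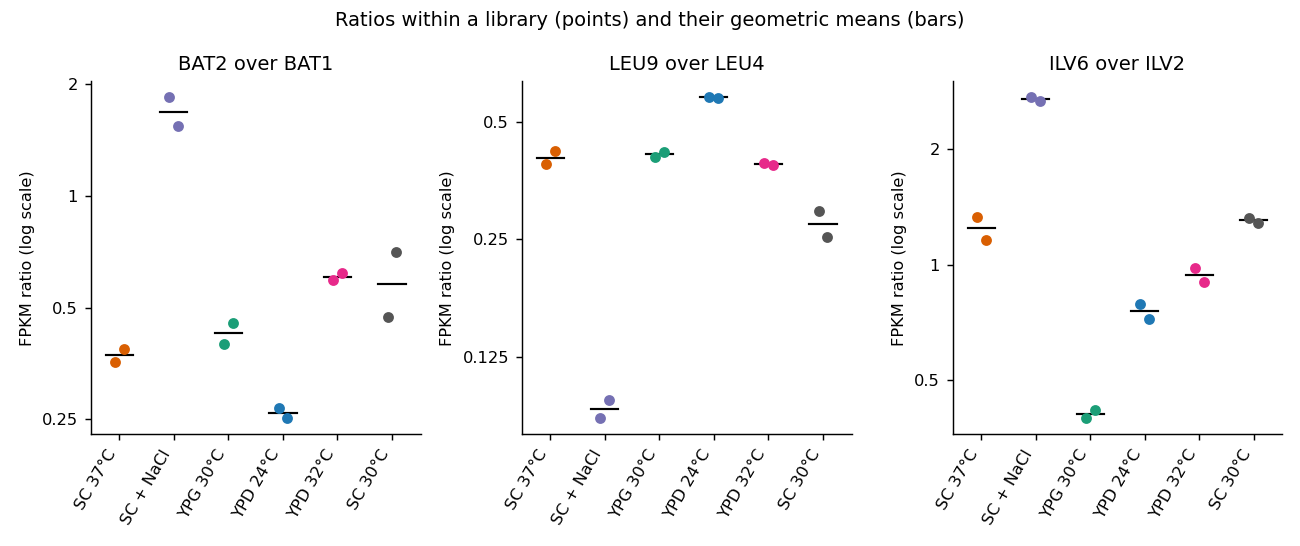
FPKM ratios (vertical axes, log scale) of *BAT2* over *BAT1*, *LEU9* over *LEU4* and *ILV6* over *ILV2* in 6 environments (horizontal axes), with a point per library and a bar at the geometric mean of 2. SC-NaCl is highest for *BAT2* over *BAT1* (1.85 and 1.54) and *ILV6* over *ILV2* (2.74 and 2.68) and lowest for *LEU9* over *LEU4*.

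Isoleucine enters the pathway through threonine deaminase, *ILV1*, and the catabolic deaminase *CHA1* can make the same keto acid. *ILV1* had counts of 1367 and 1678 in SC-NaCl, against 4320 and 3765 in SC30, and fell by 1.41 on the log2 scale (limma, adjusted p = 1.14e-08). It rose by 0.56 in YPG, 0.46 in YPD24 and 0.54 in YPD32 and was at -0.01 in SC37. *CHA1* rose by 4.94 in YPG, 3.83 in YPD32 and 2.33 in YPD24 and was not called in SC37 or SC-NaCl. The 5 genes that supply threonine, *HOM3*, *HOM2*, *HOM6*, *THR1* and *THR4*, were all lower in salt (median -1.95), beside 47.2% of all genes. In YPD32 4 of the 5 rose, beside 16.7% of all genes, *HOM3* by 1.78, *HOM2* by 0.98 and *THR4* by 0.73. In YPG 2 rose, *HOM3* by 1.14 and *THR4* by 0.67, while *HOM6* fell by 1.26, beside 28.1% of all genes higher and 38.7% lower. In YPD24 3 rose, *HOM3* by 0.82, and *HOM6* fell, beside 10.4% of all genes higher and 45.6% lower. In SC37 *HOM2* alone passed, with a rise of 0.39, beside 11.9% of all genes higher.

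*OAC1* encodes the mitochondrial carrier that exports the leucine precursor alpha-isopropylmalate. Its counts were 475 and 696 in SC-NaCl and 5616 and 5701 in YPD32, against 2213 and 2079 in SC30. It was 0.268-fold in SC-NaCl (limma, adjusted p = 4.34e-09), rose by 1.40 in YPD32 (adjusted p = 1.04e-06) and by 0.94 in YPD24, and was at 0.13 in SC37 and 0.08 in YPG, neither called. Of the regulators *LEU3*, *GCN4* and the kinase gene *GCN2*, all 3 fell in salt, *LEU3* by 0.63 (adjusted p = 4.55e-05) and *GCN4* by 0.54. Of all genes 47.2% were lower there, with a median of -0.22. *LEU3* had counts of 2355 and 2210 in YPG, against 1505 and 1494 in SC30, and rose by 0.61, while it was at 0.04, 0.05 and 0.10 in SC37, YPD24 and YPD32, none called. *GCN4* rose by 1.15 in YPG, 0.53 in YPD24 and 0.42 in YPD32. The activity of Gcn4 is set largely by translation, which RNA levels do not show.

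Permease genes moved in both directions in salt. *BAP2*, a permease for leucine, isoleucine and valine, was higher in all 5 environments than in SC30, by 0.85 in SC37, 2.13 in SC-NaCl, 1.51 in YPG, 1.10 in YPD24 and 1.40 in YPD32 (limma, largest adjusted p = 1.16e-05). Its counts were 18840 and 21490 in SC-NaCl, against 4721 and 4449 in SC30. Of the 6 permease genes *BAP2*, *BAP3*, *TAT1*, *AGP1*, *GAP1* and *GNP1*, 4 rose and 2 fell in salt, *AGP1* by 2.94 upward and *GAP1* by 1.36 downward. In YPG 5 of 6 rose, *AGP1* by 3.34 and *GAP1* by 2.32, and in SC37 4 rose, *BAP3* by 1.61, while *GAP1*, the general permease, fell by 2.50. In YPD24 4 rose and 1 fell and in YPD32 5 rose and 1 fell, and *GAP1* was the gene that fell in both, by 1.68 and 2.04. Of the 5 genes of the external amino acid sensor (*SSY1*, *PTR3*, *SSY5*, *STP1*, *STP2*), 4 rose in salt, 3 rose in YPG, 3 fell in YPD24, 2 fell in YPD32 and none passed in SC37. The shares of all genes were 33.8% higher and 47.2% lower in SC-NaCl, 28.1% and 38.7% in YPG, 10.4% and 45.6% in YPD24, 16.7% and 21.5% in YPD32, and 11.9% and 11.6% in SC37.

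The keto acids also leave through the Ehrlich pathway, which breaks amino acids down to fusel alcohols, and into pantothenate. Of the 8 Ehrlich genes *ARO8*, *ARO9*, *ARO10*, *ARO80*, *PDC1*, *PDC5*, *PDC6* and *THI3*, 4 rose and 3 fell in YPG, beside 28.1% and 38.7% of all genes. The largest rises were in the decarboxylase gene *ARO10* (4.06) and the transaminase gene *ARO9* (3.63). In salt 3 rose and 5 fell, beside 33.8% and 47.2% of all genes, with *PDC6* at 5.72, *ARO8* at -2.96 and *ARO10* at -2.41. In YPD24 3 rose and 3 fell, beside 10.4% and 45.6% of all genes, and in YPD32 3 rose and 4 fell, beside 16.7% and 21.5%. In SC37 *PDC5* alone fell, by 0.95, beside 11.6% of all genes lower. The 3 pantothenate genes *ECM31*, *PAN5* and *PAN6* were all lower in salt (median -2.04) and in YPG (median -0.65), beside 47.2% and 38.7% of all genes. In YPD24 2 were lower, beside 45.6% of all genes, and in YPD32 *PAN6* rose by 0.39, beside 16.7% higher. No gene of these lists that was called changed its direction under median-of-ratios scaling, but the falls in YPD24 rest in part on the shift of all genes (-0.29): under that scaling *PAN6* went to -0.04, *HOM6* to -0.05, *STP1* to -0.12 and *THI3* to -0.12, 4 genes chosen after their values were seen.

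Similarity of profile over the 12 libraries is given as a description, since the libraries are shared and come from 6 environments. On log2 counts, the genes most like *LEU1* were *PHO86*, *MKC7*, *HEM13*, *ATF2* and *AAP1* (Pearson r = 0.959 to 0.940), and its closest member was *BAT1* (r = 0.894). Those most like *BAT1* were *EFB1*, *SAD1*, *OAC1*, YGR210C and *KEL3* (r = 0.987 to 0.982), with *OAC1* at 0.984, *ILV3* at 0.973 and *LEU9* at 0.951. The least alike member was *LEU4*, at 0.473 with *BAT1* and 0.483 with *LEU1*. Among the members *BAT2* was closest to *ILV6* (r = 0.854), and the paralogs *BAT1* and *BAT2* stood at 0.747.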

How the data were processed

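Total RNA of BY4743 was sequenced in 6 environments with 2 libraries each, 12 in all. As the methods and labels state, the authors aligned the reads to the R64 yeast genome with Hisat2, sorted them with SAMtools 1.9 and quantified genes with Cufflinks' cuffquant and Cuffnorm, without pooling replicates. The deposited counts are a signal, estimated and scaled to a common library size, and are not whole. The authors also deposited FPKM, which are per length. Library totals lay between 13872996 and 14144527 because of that scaling. The step between low values implies a depth of 12377840 to 15512768 counted read pairs. A value near 1 stands for about 1 read pair.

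Genes were taken by systematic name, and the text calls the deposited values counts. Those with a mean of at least 10 counts (6082) were tested with limma 3.58.1 in R 4.3.3 on log2(count + 1), with all 12 libraries in 1 fit, a mean-variance trend and Benjamini-Hochberg adjustment within each of 7 comparisons at a threshold of 0.05. The design foresaw a test for whole counts or, for normalized values, limma, and limma was used. On simulated data with 6082 genes for YPD at 32°C against SC at 30°C, the test recovered 96 of 100 changes of 1 on the log2 scale and 52 of 100 of 0.5. The simulation set the same extra spread for every gene and library, unlike the data, and changed YPD32 only. Its recovery does not carry over to the other comparisons. Ratios within a library were compared with an exact permutation test that enumerates all 10395 ways to pair the 12 libraries. Motifs were searched with Biopython 1.88 in the R64 reference, and 6047 of 7127 identifiers matched its annotation. Tables were handled with Python 3.11.15, pandas 2.3.3 and numpy 2.4.6, with plots made in matplotlib 3.10.9.

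The members and gene lists were chosen with earlier results of these data known. All 10 members are named. Of the other lists, at most 3 genes with the largest changes past the threshold in a comparison are named, besides *ILV1*, *OAC1*, *LEU3*, *GCN4* and *BAP2*, and for *LEU1* and *BAT1* the 5 genes of most similar profile. The rule also covers *BAT2*, whose list is not reported here. The alternatives were 2 other scalings, FPKM, 2 other pseudocounts, 2 other filters, a fit without the trend, a fit of only the 2 environments, a replicate block and each library left out. The 2 alternatives for the summed level of the pathway were added after the data were seen.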

Additional observations from a re-analysis of the deposited data

How the results depend on the processing

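Leaving out 1 library gave 842 to 917 genes called for SC37 against SC30, where 1425 were called with all libraries, and 3 to 4 members in place of 5. It gave 1825 to 2370 genes for YPD24 against YPD32, where 3000 were called. Without the mean-variance trend, 3 members were called for SC37. The loose Leu3 motif stood in 3 members in the short promoter window and in 7 in the 600 bases. Scaling moved the share of higher calls from 18.6% to 48.6% (YPD24 against SC30, median-of-ratios), from 13.6% to 50.7% (YPD24 against YPD32, median-of-ratios) and from 50.7% to 62.0% (SC37, upper-quartile).

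These members changed sign. Median-of-ratios scaling gave -0.017 for *LEU4* in SC37, 0.11 for *BAT2* in YPG, 0.28, 0.24 and 0.26 for *ILV6*, *ILV5* and *BAT2* in YPD24, 0.13, 0.032 and 0.038 for *ILV5*, *LEU1* and *BAT1* in YPD24 against YPD32, and 0.10 for *ILV5* in YPG against YPD32. Upper-quartile scaling gave 0.041 for *BAT1* in SC37, 0.26, 0.22 and 0.24 for *ILV6*, *ILV5* and *BAT2* in YPD24, and 0.12, 0.022 and 0.028 for *ILV5*, *LEU1* and *BAT1* in YPD24 against YPD32. Leaving out 1 library gave -0.035 to 0.040 for *LEU4* and -0.12 to 0.092 for *BAT1* in SC37, -0.0060 to 0.094 for *ILV6* and -0.21 to 0.16 for *BAT2* in YPG, -0.066 to 0.051, -0.11 to 0.0075 and -0.21 to 0.16 for *ILV6*, *ILV5* and *BAT2* in YPD24, and -0.060 to 0.049 for *ILV5* in YPG against YPD32. *ILV6* and *BAT2* in YPD24 were then called higher under median-of-ratios scaling, and *ILV6* under upper-quartile scaling. Beyond the call changes given with each comparison, upper-quartile scaling called *ILV6* in SC37 (0.25) and *LEU4* in SC-NaCl higher (0.34) and lost *ILV6* in SC-NaCl (-0.17) and *LEU9* and *LEU1* in YPD24 against YPD32. The fit without the trend lost *ILV3* and *ILV2* in SC37, *LEU4* in YPD24 against SC30, and *LEU9* and *LEU1* in YPD24 against YPD32. The fit without a filter lost *ILV3* in SC37 and *LEU9* in YPD24 against YPD32, and FPKM also lost that *LEU9* call. The fit of only the 2 environments compared called *ILV3*, *ILV5* and *BAT1* lower in YPD24 against YPD32 and *ILV3* lower in YPG against YPD32. The cause of these changes was not tested.

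Of 630 values of members under alternatives that keep all libraries, 593 kept their direction and side of the threshold, as did 214 of 252 with a library left out. The 3 ratios stayed past the threshold under every alternative run for them, at 5.94 to 7.10, 5.97 to 6.65 and 6.49 to 6.83 with a library left out. With 1 library left in an environment, that library was assumed to vary like the others.

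The replicate number as a block gave 1455 genes and 5 members called for SC37 and 5 members in place of 6 for YPD24 against SC30, where *LEU4* (0.21) lost its call. It changed no other call of a member. Deviations of same-numbered libraries correlated at 0.21 between SC37 and SC30 and between -0.09 and 0.04 otherwise. The labels give these libraries only a number in common, and whether any of them share a batch was not tested. Depth limits low genes and did not limit the members, whose lowest count was 615.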
